A study of Rattus norvegicus with 28 samples.

Results

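The subject is the change in kidney gene expression after uninephrectomy, the removal of a kidney, that rats of 2 strains had in common. All 28 of the 28 arrays were used, and all 31042 non-control probe sets were tested. The members were defined by a contrast, not by a list: for each probe set the change after uninephrectomy in SBN/y and the change in SBH/y were averaged with equal weight, and attention was given to probe sets that moved the same way in each strain. The 2 strains are lines of the Sabra rat, SBN/y bred for resistance and SBH/y for proneness to salt-sensitive hypertension.

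The 4 groups of 7 arrays were SBN/y females with 2 kidneys after a sham operation, SBN/y females with 1 kidney after uninephrectomy, and the same 2 groups in SBH/y. They are called sham and uninephrectomized below. All animals were female, were operated on after weaning, had standard chow and free water, and were killed under ether at 5 months of age, 4 months after the operation. No salt load, drug or transgene is named for any group, and the labels do not name the side that was removed. Each group was numbered from 1 to 7 without a word on how many animals stood behind those numbers, and the p-values therefore speak of the spread among samples, which may be technical. Snap-frozen kidney was the source of RNA, so the values are those of all kidney cells together, and fewer cells of a type and less RNA per cell cannot be told apart.

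After loss of a kidney the remaining one enlarges. Each of its nephrons filters more plasma, and its tubules grow and take back a larger load of salt, glucose, amino acids and phosphate. Cells that make and fold more protein depend on chaperones: heat shock proteins of the Hsp70 and Hsp40 families in the cytosol, and Hspa5 (BiP) and its partners in the endoplasmic reticulum, whose genes are switched on by the unfolded protein response. Proximal tubule cells reabsorb most of the filtrate and burn fatty acids, distal cells tune calcium and potassium, and podocytes form the filtration barrier.

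The kidney label was borne out by defining markers. Over the 28 arrays the thick limb gene Umod had a mean log2 value of 13.25, the collecting duct water channel Aqp2 11.79 and the proximal tubule receptor Lrp2 12.50, at percentiles 100, 99 and 99.7 among the 14217 genes named. The adrenal gene Cyp11b1 had a mean of 2.87, at percentile 1.2, the muscle gene Ckm 4.19, at percentile 15.6, and the fat gene Adipoq 6.68, at percentile 46.2. Array medians lay between 5.72 and 5.77. The arrays differed in 2 ways that touch the results. The first was a clock score, the mean of 10 clock genes with those of opposite phase turned in sign. It ran from 0.45 to 0.74 in sham SBH/y and from -1.23 to 0.75 (median -0.98) in uninephrectomized SBH/y, where number 2 alone lay at the sham level. In SBN/y the sham arrays lay between -0.33 and 0.40 (median -0.21) and the uninephrectomized ones between -0.95 and 0.58 (median 0.26), with number 6 the lowest. The other was a measure of RNA quality, the 3′ minus 5′ signal of the GAPDH control probe sets, which is larger in more degraded RNA. Its medians in sham and uninephrectomized arrays were 0.45 and 0.52 in SBN/y and 0.44 and 0.53 in SBH/y. The same difference for beta-actin had medians of 1.16 and 1.27 in SBN/y and 1.20 and 1.23 in SBH/y. The first component of the residuals held 23.1% of their variance and set number 6 of sham SBH/y (28.3) and number 6 of uninephrectomized SBH/y (21.6) apart. Results are therefore also given with each array's clock score, or its mean 3′ minus 5′ signal, as a covariate, and without these arrays. Both measures differ between sham and uninephrectomized arrays, so such fits leave less information on the operation, and the part of either in a result was not tested further.

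**Figure D1:**
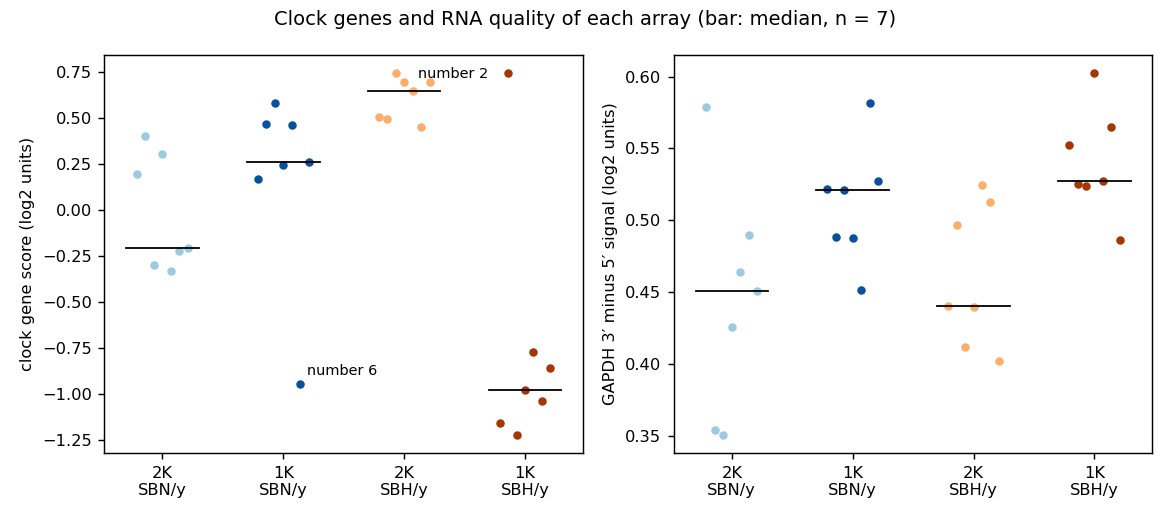
Clock gene score (left, log2 units) and GAPDH 3′ minus 5′ signal (right, log2 units) of each array by group, 2K for sham and 1K for uninephrectomized, with bars at the group medians of 7 arrays. The clock score falls in SBH/y from a median of 0.65 to -0.98 with number 2 of the uninephrectomized arrays at 0.75, while the 3′ minus 5′ signal has a higher median after uninephrectomy in each strain.

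Averaged over the strains, 2025 of 31042 probe sets changed after uninephrectomy (6.52% called at an adjusted p under 0.05 in limma), 796 up (2.56%) and 1229 down (3.96%). Taking each gene by its brightest probe set, 499 genes rose (3.51%) and 622 fell (4.38%). The changes were small: the median size among the 2025 was 0.19 log2 units, and 13 probe sets changed by 1.5-fold or more in each strain in the same direction. Among the 2025, 1906 had the same sign in both strains (94.1%, against 57.8% of all probe sets), but since the average chose them, a shared sign is in part fixed by the choice. SBH/y carried more of the average: the median size of change was 0.25 in SBH/y and 0.13 in SBN/y, 1373 probe sets were called in SBH/y and not SBN/y, 67 the other way round, and 524 in neither alone. The difference between the strains was itself called for 201 of the 2025 (1.41% of all probe sets were called), with the larger change in SBH/y in 198. The interaction called 0 of all probe sets in limma once the clock score was a covariate, with 1587 at an unadjusted p under 0.05, against 439 and 3665 without it, and with the 3′ minus 5′ signal it called 574.

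Tested in each strain alone, 144 probe sets changed in SBN/y (0.464%) and 2558 in SBH/y (8.24%). The 2 strains share no arrays. Of the SBN/y calls 86.8% had the same sign in SBH/y, 61 (42.4%) were also called there in the same direction and 4 in the opposite direction. Those 61 were 2.38% of the SBH/y calls, of which 68.1% had the same sign in SBN/y. Across all probe sets the changes in the 2 strains had a Pearson correlation of 0.25, a description over probe sets that share arrays within each strain. The test that asked for a change in each strain, taking the larger of the strains' p-values, called 12 probe sets (0.0387%), 8 up (0.0258%) and 4 down (0.0129%), and 837 probe sets had a p under 0.05 in it before adjustment. Below, rose and fell refer to the average test unless a strain's own test is named. For most named genes, changes or group medians are given for each strain beside it. A wider tier is used for genes called on average with the same sign and an unadjusted p under 0.05 in each strain: 189 genes that rose (1.33% of genes) and 242 that fell (1.7%).

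**Figure D2:**
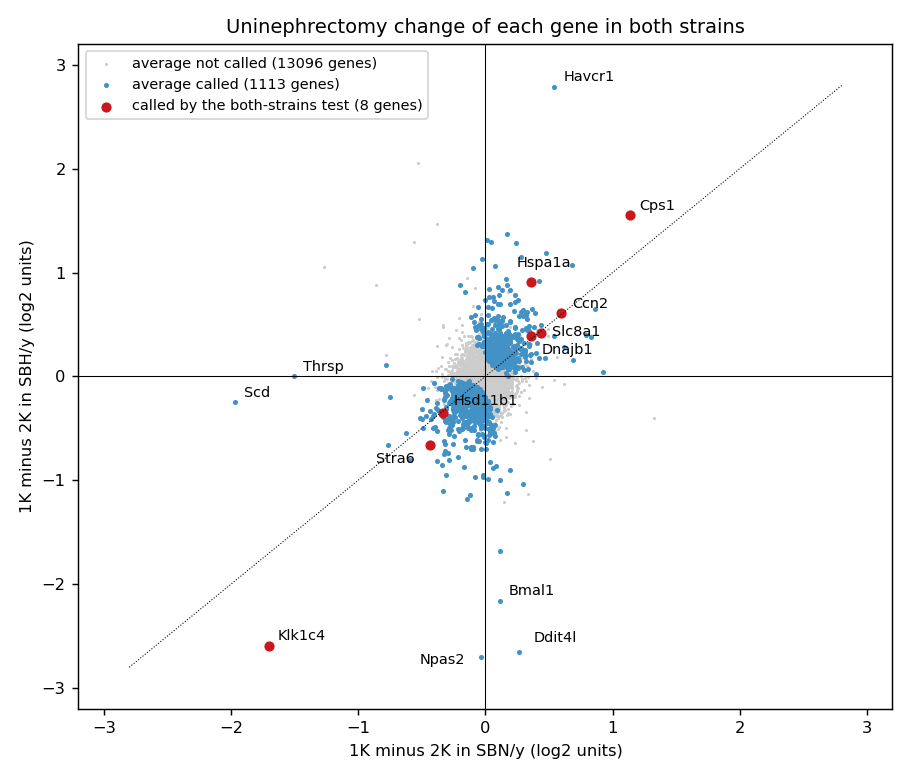
Change after uninephrectomy in SBN/y (horizontal) against SBH/y (vertical), in log2 units, 1 point per gene, with the line of equal change dotted; blue genes were called on average and red ones by the both-strains test. The 8 red genes lie in the quadrants of equal sign, from Klk1c4 at -1.71 and -2.59 to Cps1 at 1.14 and 1.55, while Havcr1, Npas2, Bmal1 and Ddit4l moved along the SBH/y axis and Scd and Thrsp along the SBN/y axis.

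The 12 probe sets of the both-strains test named Klk1c4, Ccn2, Slc8a1, Dnajb1, Hsd11b1, Hspa1a, Cps1 and, by 2 probe sets, Stra6. Another names both Hspa1a and Hspa1b, near-identical genes whose signals cannot be told apart, and 2 had no gene symbol. Of the 12, 8 had no overlap between sham and uninephrectomized arrays in either strain (0.0741% of all probe sets had none in the same direction). Among genes, 18 of 14217 (0.127%) had none. Beside those named elsewhere in the text, these were the splicing factor Tra2a (0.25 in SBN/y and 0.35 in SBH/y, log2 change) and the galactosyltransferase B4galt5 (0.19 and 0.34) among rises, and Asb9 (-0.29 and -0.80), the helix-loop-helix inhibitor Id4 (-0.27 and -0.40), the RNA-binding genes Hnrnpd (-0.31 and -0.32) and Rbpms (-0.21 and -0.28) and the cystathionine synthase Cbs (-0.19 and -0.27) among falls. These 7 were named after their values were seen.

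**Figure D3:**
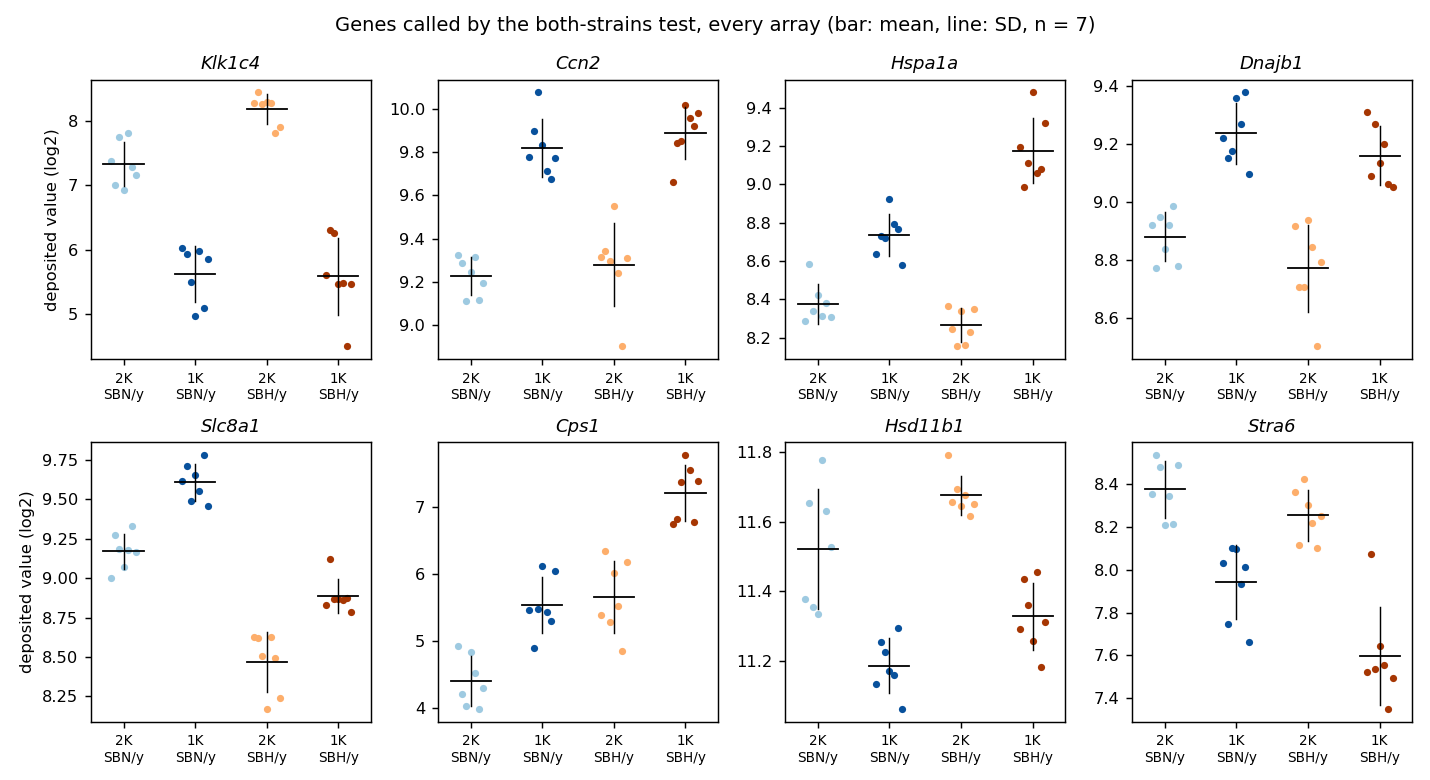
Deposited log2 value of each of the 28 arrays for the 8 genes called by the both-strains test, by group, with the mean as a bar and the SD as a line (n = 7). In each panel the mean of the uninephrectomized arrays lies on the same side of the sham mean in SBN/y and SBH/y, and for Ccn2, Dnajb1, Slc8a1, Klk1c4, Hsd11b1 and Stra6 the 2 sets of arrays do not overlap in either strain.

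The chaperones Dnajb1 and Hspa1a rose in both strains. Dnajb1, the Hsp40 partner that activates Hsp70, had 7 sham SBN/y arrays between 8.77 and 8.99 (median 8.92) and uninephrectomized ones between 9.10 and 9.38 (median 9.22). In SBH/y the sham arrays lay between 8.50 and 8.94 (median 8.79) and the uninephrectomized ones between 9.05 and 9.31 (median 9.14). The groups did not overlap in either strain. Its rise was 0.36 ± 0.06 in SBN/y and 0.39 ± 0.06 in SBH/y (log2 change ± SE, 1.28-fold and 1.31-fold, both-strains adjusted p 0.00942), and the interval of the difference between the strains was -0.14 to 0.21.

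Hspa1a, the inducible Hsp70, rose more in SBH/y. Its sham arrays ran from 8.28 to 8.58 (median 8.34) in SBN/y and from 8.15 to 8.37 (median 8.25) in SBH/y. After uninephrectomy the arrays ran from 8.58 to 8.92 (median 8.73) and from 8.98 to 9.48 (median 9.11). The ranges met in SBN/y and were apart in SBH/y. The rise was 1.28-fold in SBN/y (0.36 ± 0.06) and 1.88-fold in SBH/y (0.91 ± 0.06), with a both-strains adjusted p of 0.0168 (0.0502 to 0.0653 without each of 6 SBN/y arrays in turn, and 0.054 with the 3′ minus 5′ signal as a covariate) and an adjusted p of 0.00177 for the difference between strains. The probe set that names both Hspa1a and Hspa1b rose by 0.52 and 0.96 log2 units (both-strains adjusted p 0.00582). Since the 2 genes have near-identical sequences, the rise may belong to either.

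Other cytosolic chaperones, co-chaperones and stress genes rose on average. Hsph1, the Hsp110 exchange factor of Hsp70, rose by 0.30 ± 0.07 in SBN/y and 0.32 ± 0.07 in SBH/y, and Dnaja1, another Hsp40, by 0.26 ± 0.06 and 0.37 ± 0.06 with no overlap between arrays in either strain. Chordc1, an Hsp90 co-chaperone, rose by 0.33 ± 0.08 and 0.44 ± 0.08, and Ddit4, a stress-induced inhibitor of mTORC1, by 0.34 ± 0.07 and 0.49 ± 0.07. Chordc1 and Ddit4 were named after their values were seen. A second probe set of Dnaja1, Dnajb1 and Hsph1 rose by 0.22, 0.26 and 0.26 on average. Number 2 of the sham SBN/y arrays was the lowest of its group for Chordc1 (7.90) and Dnaja1 (10.19). In the list of immediate early and heat shock genes, 10 of 31 measured members rose on average and 1 fell (3.51% and 4.38% of all genes), and 5 of the rises were in the tier with p under 0.05 in each strain. The median change over the list was 0.056, against 0.0059 over all genes. The members that rose were both chaperones (Hspa1a, Dnajb1, Dnaja1, Hsph1 and Hspb1) and immediate early genes (Jun, Klf6, Klf2, Atf3 and Zfp36), and the 1 that fell was Ier5. Fos (0.09 on average) and Egr1 (0.01) did not pass the test, nor did the mitochondrial chaperones Hspd1 (0.01) and Hspe1 (0.00). With the clock score as a covariate 7 members rose, with the 3′ minus 5′ signal 6, and without number 6 of uninephrectomized SBN/y and number 2 of uninephrectomized SBH/y, 10. Dnajb1 itself rose by 0.32 on average with the clock score (adjusted p 0.000398) and by 0.37 with the 3′ minus 5′ signal (adjusted p 0.000125), but its both-strains adjusted p was then 1 and 0.068.

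The unfolded protein and integrated stress response, which holds the chaperones of the endoplasmic reticulum, had many rises. Of 30 measured genes of the unfolded protein and integrated stress response, 18 rose on average and 2 fell, both of serine synthesis, Phgdh (-0.24) and Psph (-0.30). In the tier with p under 0.05 in each strain were 6 rises and 0 falls. Taken alone, SBN/y called 2 rises and 1 fall (0.288% and 0.317% of all genes) and SBH/y 15 rises and 1 fall (4.85% and 5.51%), and the median change was 0.08 in SBN/y and 0.23 in SBH/y, against -0.00069 and 0.013 over all genes. The interaction was called for 5 of the 30 (2.06% of all genes).

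Hspa5, the main chaperone of the endoplasmic reticulum, ran from 11.01 to 11.27 (median 11.08) in sham and from 11.22 to 11.45 (median 11.40) in uninephrectomized SBN/y arrays. In SBH/y the sham range was 11.04 to 11.35 (median 11.09) and the uninephrectomized range 11.37 to 11.67 (median 11.54). The ranges overlapped in SBN/y and not in SBH/y. The rise was 0.24 ± 0.06 in SBN/y (adjusted p 0.0468) and 0.36 ± 0.06 in SBH/y (adjusted p 8.79e-05), and the both-strains adjusted p was 0.165. Manf, a secreted stress-induced factor, had SBN/y arrays of 9.51 to 9.70 (median 9.63) in sham and 9.74 to 10.14 (median 9.83) in uninephrectomized animals. Its SBH/y arrays ran from 9.28 to 9.63 (median 9.45) and from 9.94 to 10.27 (median 10.08), so that the groups did not overlap in either strain. Manf rose by 0.28 ± 0.06 and 0.62 ± 0.06 (both-strains adjusted p 0.123). Creld2, a stress-induced isomerase, rose by 0.28 ± 0.07 and 0.44 ± 0.07. Herpud1, part of the degradation machinery of the endoplasmic reticulum, rose on average (0.52 ± 0.07) with 0.17 ± 0.10 in SBN/y and 0.88 ± 0.10 in SBH/y, and the difference between strains was called (adjusted p 0.00634). Herpud1 had its highest SBN/y value (9.86) in uninephrectomized number 6 and its lowest uninephrectomized SBH/y value (9.52) in number 2, the arrays whose clock score went against their groups. Xbp1, the transcription factor of the unfolded protein response, and Dnajc3, an inhibitor of the kinase Perk, rose by 0.17 ± 0.03 and 0.18 ± 0.04 on average and were named after their values were seen. Of the list, 11 members rose with the clock score as a covariate, 14 with the 3′ minus 5′ signal, and 15 without the 2 arrays whose clock score went against their groups.

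Serpinh1, the collagen chaperone Hsp47, rose on average, by 0.24 ± 0.06 in SBN/y and 0.23 ± 0.06 in SBH/y, the prolyl hydroxylase P4ha1 by 0.34 ± 0.08 and 0.39 ± 0.08, and the lysyl hydroxylase Plod2 by 0.22 ± 0.06 and 0.29 ± 0.06. These 3 were named after their values were seen. A second, dim probe set of Serpinh1 (mean 3.19) did not pass the test. Of the fibrillar collagens, Col1a1 rose on average (0.21 ± 0.06) with -0.04 ± 0.09 in SBN/y and 0.46 ± 0.09 in SBH/y (adjusted p 0.0397 for the difference), while its second probe set (-0.06) and Col3a1 (0.13 ± 0.07) did not pass the test. The Col1a1 call was lost in 16 of 28 fits without 1 array (adjusted p up to 0.072) and with the clock score (0.683) or the 3′ minus 5′ signal (0.533) as a covariate.

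The promoters of 4 of these genes are shown because each holds a binding motif known for the factor that switches such genes on, the heat shock element in Hsph1 and Serpinh1 and the ER stress response element in Hspa5 and Creld2. They are the 250 bases before the gene start, 5′ to 3′ in the direction of the gene, from RefSeq with build GRCr8, in lower case with the motif in capitals. Hsph1 lies at chr12:10427118-10427367 on the plus strand, Serpinh1 at chr1:163062977-163063226 on the minus strand, Hspa5 at chr3:38452766-38453015 and Creld2 at chr7:121789134-121789383, both on the plus strand.
Hsph1: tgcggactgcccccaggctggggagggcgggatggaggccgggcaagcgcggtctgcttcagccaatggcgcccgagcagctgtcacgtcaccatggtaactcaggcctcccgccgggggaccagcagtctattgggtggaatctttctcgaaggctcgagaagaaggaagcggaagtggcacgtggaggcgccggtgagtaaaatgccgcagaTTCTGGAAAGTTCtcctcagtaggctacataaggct
Serpinh1: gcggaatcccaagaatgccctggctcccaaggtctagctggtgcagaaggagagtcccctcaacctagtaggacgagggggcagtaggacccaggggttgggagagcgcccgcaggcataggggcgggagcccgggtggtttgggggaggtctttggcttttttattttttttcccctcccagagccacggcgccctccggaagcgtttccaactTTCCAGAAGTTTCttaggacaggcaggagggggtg
Hspa5: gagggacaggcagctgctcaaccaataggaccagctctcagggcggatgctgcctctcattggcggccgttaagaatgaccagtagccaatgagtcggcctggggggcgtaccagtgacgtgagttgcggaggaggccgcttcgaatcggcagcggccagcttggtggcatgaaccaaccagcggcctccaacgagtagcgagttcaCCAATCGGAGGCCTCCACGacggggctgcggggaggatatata
Creld2: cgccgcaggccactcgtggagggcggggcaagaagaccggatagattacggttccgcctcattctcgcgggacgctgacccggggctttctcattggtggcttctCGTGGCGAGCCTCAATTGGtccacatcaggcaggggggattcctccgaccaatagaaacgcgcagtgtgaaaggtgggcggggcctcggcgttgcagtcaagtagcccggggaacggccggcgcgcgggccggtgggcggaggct

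The heat shock element was searched as GAANNTTCNNGAA or TTCNNGAANNTTC and the ER stress response element as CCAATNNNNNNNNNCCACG, where N is any base, on both strands. The heat shock element starts 36 bases before the gene start in Hsph1 and 35 in Serpinh1, and the ER stress response element 43 in Hspa5 and, on the opposite strand, 145 in Creld2. There were 13243 promoters that bore the symbol of a gene among the 14217 measured, and a gene could have several. Of all 33469 promoters of this length, 222 held the heat shock element (0.663%) and 22 the ER stress response element (0.0657%). Among the 13243 promoters of measured genes, 52 (0.393%) and 18 (0.136%) did. Measured genes of the unfolded protein list had 27 promoters, 2 of them of Hyou1. The ER stress response element was in 7, those of Hspa5, Creld2, Xbp1, Dnajc3, Calr, Canx and Hsp90b1. Of these genes Hspa5, Creld2, Xbp1, Dnajc3 and Calr rose on average, while Canx (0.01) and Hsp90b1 (0.12) did not pass the test. A further 12 promoters of list members that rose, among them the 2 of Hyou1, had no match. Of 23 measured immediate early and heat shock genes with a promoter, 3 held the heat shock element, Hsph1, Hspd1 and Hspe1, of which Hsph1 rose. Dnajb1, Hspa1a and Dnaja1 held no such letters in this window. A match is a description of the letters in the window.

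Ccn2, the matricellular growth factor CTGF and a target gene of TGF-beta and of the YAP coactivator, rose in both strains. Its sham arrays lay between 9.11 and 9.32 (median 9.24) in SBN/y and between 8.90 and 9.55 (median 9.31) in SBH/y. After uninephrectomy they lay between 9.68 and 10.08 (median 9.78) and between 9.66 and 10.02 (median 9.92). All 14 uninephrectomized arrays were above all 14 sham arrays. The rise was 0.59 ± 0.07 in SBN/y (1.51-fold) and 0.61 ± 0.07 in SBH/y (1.53-fold), with a both-strains adjusted p of 5.49e-05 and an interval of -0.19 to 0.22 for the difference between strains. The call held with the clock score (both-strains adjusted p 0.00368) and with the 3′ minus 5′ signal (0.00212) as a covariate.

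Few other targets of the pathway moved. Of 19 measured TGF-beta and YAP target genes, 3 rose and 1 fell on average (3.51% and 4.38% of all genes). Ccn1, the related matricellular gene CYR61, rose by 0.62 ± 0.13 in SBN/y and 0.28 ± 0.13 in SBH/y, and the ligand Tgfb3 by 0.19 ± 0.08 in each strain, with 3 group means below the lowest array median. All 3 rises had p under 0.05 in each strain, and with either covariate 2 genes rose. The call of Tgfb3 was lost in 15 of 28 fits without 1 array (adjusted p up to 0.0686) and with the clock score (0.486) or the 3′ minus 5′ signal (0.439). Tgfbi fell on average (-0.21 ± 0.06), with -0.36 ± 0.08 in SBH/y beside -0.05 ± 0.08 in SBN/y, and its call was lost in 9 of 28 such fits (adjusted p up to 0.056) and with either covariate (0.282 and 0.0817). Tgfb1, the main TGF-beta ligand, did not pass the average test (0.14 ± 0.05, adjusted p 0.13). Among 40 measured growth factors and receptors, 6 rose and 4 fell (3.51% and 4.38% of all genes), and 2 rises and 1 fall had p under 0.05 in each strain. With either covariate 2 rose. The insulin-like growth factor receptor Igf1r rose by 0.15 ± 0.04 on average, while its ligand Igf1 (0.13 ± 0.08, adjusted p 0.441) did not pass the test. Of the proteins that bind these ligands, Igfbp6 rose by 0.18 ± 0.06 and 0.25 ± 0.06 and Igfbp4 on average by 0.26 ± 0.06. Igfbp4 had medians of 8.35 and 8.38 in sham and uninephrectomized SBN/y arrays and of 8.29 and 8.74 in SBH/y. The EGF receptor ligand Areg rose on average with 0.05 ± 0.15 in SBN/y and 1.29 ± 0.15 in SBH/y (adjusted p 0.00256 for the difference) and was dim, with means below the lowest array median in all 4 groups. Egf (0.05 ± 0.03, adjusted p 0.389) and Vegfa (-0.06 ± 0.03, adjusted p 0.313) did not pass the test, and the VEGF receptor Kdr fell (-0.18 ± 0.04 on average). Kdr had medians of 9.35 and 9.30 in sham and uninephrectomized SBN/y arrays and of 9.19 and 8.87 in SBH/y. Second, dimmer probe sets of Igf1r (0.10) and Kdr (-0.03) did not pass.

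Genes of calcium and phosphate handling changed on average with p under 0.05 in each strain, up for 2 genes of the distal tubule and down for a proximal phosphate transporter and 2 secreted factors. Slc8a1, the sodium-calcium exchanger through which distal cells return calcium to the blood, ran from 9.0 to 9.33 (median 9.18) in sham and from 9.45 to 9.78 (median 9.61) in uninephrectomized SBN/y arrays. In SBH/y it ran from 8.17 to 8.63 (median 8.50) and from 8.79 to 9.12 (median 8.87), with no overlap in either strain. The rise was 0.44 ± 0.07 and 0.42 ± 0.07 (1.35-fold and 1.34-fold, both-strains adjusted p 0.00942), and the difference between strains lay between -0.22 and 0.19. A dimmer probe set of Slc8a1 (mean 5.33) changed by 0.17 on average and did not pass the test (adjusted p 0.244). With the clock score as a covariate the smaller of the strains' rises was 0.43, with a both-strains adjusted p of 0.699.

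Calb1, the calcium-binding protein calbindin of the same cells, had sham SBN/y arrays of 11.11 to 12.06 (median 11.85) and uninephrectomized ones of 12.17 to 12.43 (median 12.29). The SBH/y arrays ran from 10.60 to 11.14 (median 10.86) and from 11.03 to 11.48 (median 11.33). The groups were apart in SBN/y and overlapped in SBH/y. Calb1 rose by 0.54 ± 0.11 and 0.38 ± 0.11, each called in its own strain (adjusted p 0.0152 and 0.0213), with a both-strains adjusted p of 0.346.

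Slc34a3, the sodium-phosphate cotransporter NaPi-IIc of the proximal brush border, fell. Its sham arrays ran from 9.85 to 10.13 (median 10.05) in SBN/y and from 10.09 to 10.28 (median 10.20) in SBH/y. The uninephrectomized arrays ran from 9.19 to 9.83 (median 9.65) and from 9.69 upward (median 9.83), each below every sham array of the strain. There was no overlap in either strain, with a change of -0.41 ± 0.07 in SBN/y and -0.36 ± 0.07 in SBH/y and a both-strains adjusted p of 0.0598. Its more abundant relative Slc34a1 did not pass the average test (-0.09 ± 0.03, adjusted p 0.118). The stanniocalcins, secreted factors of calcium and phosphate handling, fell on average. Stc2 changed by -0.59 ± 0.13 and -0.81 ± 0.13, with medians of 6.39 and 5.79 in sham and uninephrectomized SBN/y arrays and 7.27 and 6.44 in SBH/y. Stc1 changed by -0.76 ± 0.21 and -0.66 ± 0.21, and its 2 other probe sets fell too, by -0.39 and -0.78 on average. Of 20 measured genes of calcium, phosphate and vitamin D, 2 rose and 3 fell on average (3.51% and 4.38% of all genes), all 5 with p under 0.05 in each strain, and the interaction was called for 0 of the 20. Kl, the co-receptor of FGF23, had medians of 7.44 and 7.21 in sham and uninephrectomized SBN/y arrays and of 6.90 and 6.81 in SBH/y, and did not pass the test (-0.01 ± 0.10, adjusted p 0.983).

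Klk1c4, a serine protease gene of the tissue kallikrein family, had the largest fall among the genes called in both strains. In sham SBN/y it ran from 6.93 to 7.81 (median 7.29) and after uninephrectomy from 4.98 to 6.03 (median 5.85). In SBH/y it ran from 7.82 to 8.44 (median 8.27) and from 4.51 to 6.30 (median 5.48). No array overlapped in either strain. The level was 3.26-fold lower in SBN/y (-1.71 ± 0.21) and 6.03-fold lower in SBH/y (-2.59 ± 0.21), with a both-strains adjusted p of 5.49e-05 and an adjusted p of 0.142 for the difference. The means of 2 of the 4 groups lay below the lowest array median. The rat has many near-identical kallikrein genes, and how far the probe set reads the others was not tested. Klk1, the renal tissue kallikrein that frees kinins, did not follow it: Klk1 changed by 0.18 ± 0.06 in SBN/y and -0.31 ± 0.06 in SBH/y, an average of -0.07 ± 0.04 that did not pass the test, and the strains differed (adjusted p 0.00157).

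Of 23 measured genes of the renin-angiotensin and vasoactive systems, 1 rose and 3 fell on average (3.51% and 4.38% of all genes). Agtr1a, the main angiotensin II receptor, fell on average. Its sham arrays ran from 8.90 to 9.18 (median 9.07) in SBN/y and from 9.25 to 9.49 (median 9.30) in SBH/y. The uninephrectomized arrays ran from 8.68 to 9.03 (median 8.82) and from 8.90 to 9.09 (median 8.99), apart from sham in SBH/y and not in SBN/y. The change was -0.19 ± 0.05 and -0.34 ± 0.05, and a second probe set fell by -0.30 and -0.42. Enpep, which cleaves angiotensin II, rose on average (0.18 ± 0.03) and Mme, the peptidase neprilysin, fell (-0.14 ± 0.03), each mainly in SBH/y, where the changes were 0.31 ± 0.04 and -0.27 ± 0.05 beside 0.06 ± 0.04 and -0.02 ± 0.05 in SBN/y (adjusted p 0.0134 and 0.042 for the differences). A dimmer probe set of Enpep changed by 0.15 in SBN/y and -0.12 in SBH/y and did not pass the average test. Agt, the precursor of angiotensin, was dim in all 4 groups and did not pass the test (0.06 ± 0.09).

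Hsd11b1, the enzyme that regenerates active glucocorticoid inside cells, fell in both strains. Sham arrays ran from 11.34 to 11.78 (median 11.53) in SBN/y and from 11.62 to 11.79 (median 11.66) in SBH/y. Uninephrectomized arrays ran from 11.06 to 11.29 (median 11.17) and from 11.18 to 11.46 (median 11.31), with no overlap in either strain. The change was -0.34 ± 0.06 and -0.35 ± 0.06 (1.26-fold and 1.27-fold lower, both-strains adjusted p 0.0135), and the difference lay between -0.18 and 0.16. The both-strains adjusted p was 0.163 with the 3′ minus 5′ signal and 0.804 with the clock score as a covariate, and it was 0.0553 without number 2 of sham SBN/y and 0.0514 without number 7 of uninephrectomized SBN/y.

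Stra6 fell in both strains and Rbp4 on average. Stra6, the receptor that takes retinol from its carrier in plasma, had sham arrays of 8.21 to 8.54 (median 8.36) in SBN/y and 8.10 to 8.43 (median 8.25) in SBH/y. After uninephrectomy they ran from 7.66 to 8.10 (median 8.01) and from 7.35 to 8.08 (median 7.54), below all sham arrays of the strain. Number 2 of uninephrectomized SBH/y was the highest of its group (8.08). The change was -0.43 ± 0.09 and -0.66 ± 0.09 (both-strains adjusted p 0.0487), and all 4 other probe sets of Stra6 fell on average, by -0.29 to -0.63, 1 of them also called in both strains (adjusted p 0.00942). Leaving out single arrays ended the call of the first probe set in 22 of 28 cases. Rbp4, that carrier, changed by -0.42 ± 0.15 and -0.50 ± 0.15.

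Cps1, the carbamoyl phosphate synthase of the urea cycle, rose from a low level. Sham arrays lay between 3.99 and 4.93 (median 4.30) in SBN/y and between 4.85 and 6.34 (median 5.53) in SBH/y. Uninephrectomized arrays lay between 4.90 and 6.12 (median 5.47) and between 6.75 and 7.78 (median 7.38), apart from sham in SBH/y and overlapping by the nearest arrays in SBN/y. The rise was 1.14 ± 0.21 and 1.55 ± 0.21 (2.2-fold and 2.93-fold in the deposited values, both-strains adjusted p 0.0307), and 3 of the 4 group means lay below the lowest array median. A dimmer second probe set rose by 0.35 and 1.08. The call was lost in 10 of 28 cases of leaving out an array, all in SBN/y, with an adjusted p of at most 0.106.

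Proximal tubule genes fell more often than they rose. Of 36 measured markers, 10 fell and 2 rose on average (4.38% and 3.51% of all genes), and 7 of the falls were in the tier with p under 0.05 in each strain (1.7% of genes). The mean log2 value of the list had medians of 10.87 and 10.81 in sham and uninephrectomized SBN/y arrays and of 11.06 and 10.97 in SBH/y, with overlapping ranges in both. The main endocytic receptor Lrp2 had group medians between 12.49 and 12.51. Slc5a12, a sodium-lactate cotransporter, changed by -0.39 ± 0.14 in SBN/y and -0.49 ± 0.14 in SBH/y, and a second probe set by -0.83 and -0.92. Slc7a8, an exchanger of neutral amino acids, changed by -0.28 ± 0.07 and -0.24 ± 0.07, and Cyp4b1, a cytochrome P450, by -0.29 ± 0.09 and -0.73 ± 0.09. The glucose transporter Slc5a2 (SGLT2) changed by -0.37 ± 0.07 and -0.11 ± 0.07 and the agmatinase Agmat by -0.22 ± 0.06 and -0.13 ± 0.06, both named after their values were seen. The organic anion transporter Slc22a6 went the other way, rising by 0.13 ± 0.05 and 0.35 ± 0.05. Of the 10 falls, 4 were called with the clock score and 4 with the 3′ minus 5′ signal as a covariate.

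Further genes named for the largest shared changes fell on average, with p under 0.05 in each strain. Ddc, which makes dopamine from L-dopa, changed by -0.43 ± 0.09 and -0.41 ± 0.09. Its dimmer probe set (mean 6.72) changed by -0.21 in SBN/y and 0.05 in SBH/y and did not pass the average test. Spp2, a secreted phosphoprotein, changed by -0.62 ± 0.11 and -0.55 ± 0.11, with medians of 10.50 and 9.81 in SBN/y and 11.59 and 11.06 in SBH/y. The protease inhibitor Pzp changed by -0.51 ± 0.14 and -0.40 ± 0.14, the axonemal dynein Dnah7 by -0.50 ± 0.10 and -0.41 ± 0.10, and the gelatinase Mmp9 by -0.49 ± 0.13 in each strain, from a low level in 3 groups. A second, dimmer probe set of Mmp9 changed by -0.01 in SBN/y and -0.32 in SBH/y and did not pass the average test. Dpp4, a brush border peptidase, changed by -0.18 ± 0.05 and -0.26 ± 0.05. The aldose reductase Akr1b1, which makes the osmolyte sorbitol, changed by -0.44 ± 0.07 and -0.33 ± 0.07 on its brighter probe set and by 0.01 on average on a dimmer one. Dpp4 and Akr1b1 were named after their values were seen.

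Genes of fatty acid oxidation and peroxisomes included 11 that fell on average. Of 39 measured, 11 fell and 1 rose (4.38% and 3.51% of all genes), and 3 of the falls had p under 0.05 in each strain (1.7%). In SBH/y 12 fell (5.51% of all genes) and in SBN/y 0 (0.317%). The median change was -0.01 in SBN/y and -0.12 in SBH/y. The beta-oxidation enzymes Ech1, Decr1 and Eci2 changed by -0.14 ± 0.07, -0.09 ± 0.05 and -0.06 ± 0.10 in SBN/y and by -0.36 ± 0.07, -0.25 ± 0.05 and -0.55 ± 0.10 in SBH/y. The thioesterase Acot8 rose by 0.20 ± 0.05 on average, with 0.10 ± 0.06 in SBN/y and 0.30 ± 0.06 in SBH/y. With the clock score as a covariate 1 member fell, and with the 3′ minus 5′ signal 0 did, against 11 without. In number 2 of uninephrectomized SBH/y Eci2 lay at 9.90, against at most 9.38 in the other 6.

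**Figure D4:**
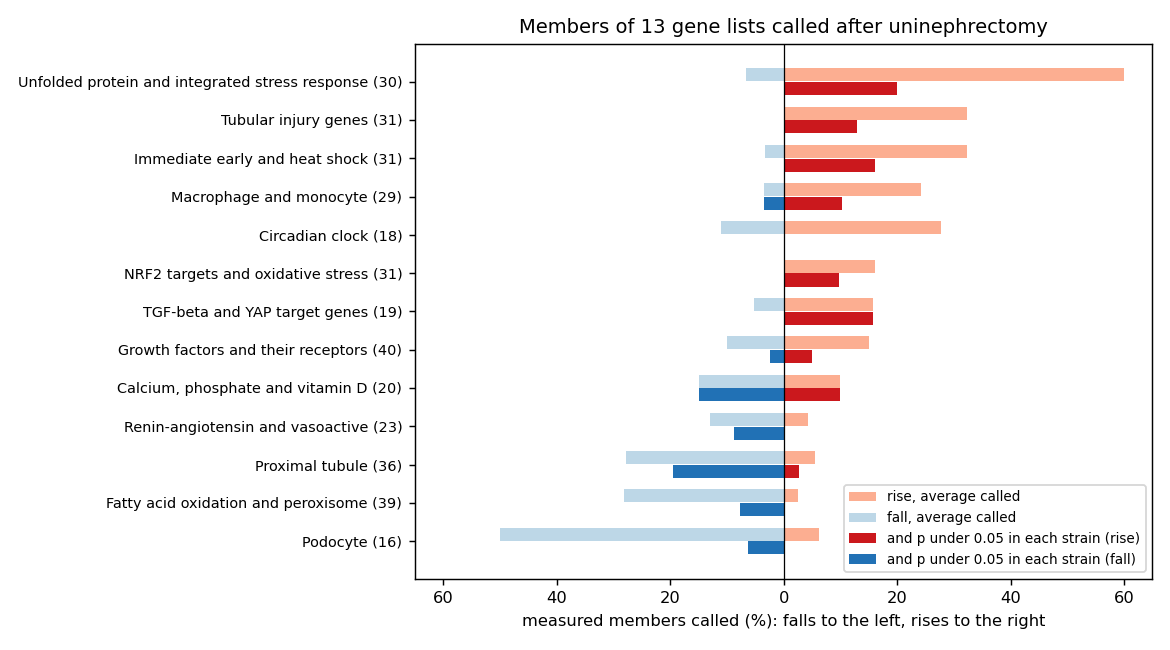
Share of the measured members of 13 gene lists (number measured in brackets) called after uninephrectomy, falls to the left and rises to the right, in percent; pale bars are calls of the average and dark bars those that also had p under 0.05 in each strain. The unfolded protein list has the longest pale bar to the right (18 of 30) and the podocyte list to the left (8 of 16), while proximal tubule genes have the longest dark bar to the left (7 of 36).

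Genes of oxidative and detoxification responses included shared risers. Gstp1, the glutathione transferase pi, had sham arrays of 10.94 to 11.39 (median 11.28) in SBN/y and 11.25 to 11.41 (median 11.30) in SBH/y. After uninephrectomy they ran from 11.41 to 11.73 (median 11.51) and from 11.63 to 12.10 (median 11.86), with no overlap in either strain. The rise was 0.33 ± 0.07 and 0.55 ± 0.07 (both-strains adjusted p 0.0712). Gsta3l1, an alpha class glutathione transferase with close relatives, rose by 0.68 ± 0.18 and 1.07 ± 0.18. Hmox1, the heme oxygenase, rose by 0.33 ± 0.09 and 0.62 ± 0.09 with 3 group means below the lowest array median. Srxn1 and Nqo1, which reduce oxidised proteins and quinones, rose on average by 0.20 ± 0.04 and 0.18 ± 0.05, and 2 dimmer probe sets of Srxn1 did not pass. Nqo1 had medians of 7.67 and 7.75 in sham and uninephrectomized SBN/y arrays and of 7.72 and 7.90 in SBH/y. Of 31 measured NRF2 and oxidative stress genes, 5 rose and 0 fell on average (3.51% and 4.38% of all genes), and 3 of the rises had p under 0.05 in each strain. With the clock score 3 rose and with the 3′ minus 5′ signal 4. The median change over the list was 0.0016, near the 0.0059 of all genes.

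The remaining genes of the rule for shared changes rose. Gadd45g, a growth arrest and stress gene, rose by 0.86 ± 0.25 and 0.65 ± 0.25. Its ranges overlapped in both strains, from 6.73 to 8.13 (median 7.63) in sham and from 7.77 to 9.20 (median 8.08) in uninephrectomized SBN/y, and from 7.37 to 8.74 (median 8.28) and 8.09 to 9.40 (median 8.56) in SBH/y. Nat8f1, an N-acetyltransferase gene with close relatives, rose by 0.60 ± 0.25 and 0.59 ± 0.25. In sham SBN/y number 2 lay at 8.85, against at least 10.71 in the other 6, and without it the average rise of Nat8f1 was 0.44 (adjusted p 0.00944) in place of 0.60. Its call was lost in 6 of 28 fits without 1 array (adjusted p up to 0.0576) and with the clock score (0.287) or the 3′ minus 5′ signal (0.401). Tmed6, of the TMED family of secretory pathway cargo receptors, rose by 0.44 ± 0.12 and 0.50 ± 0.12, with medians of 7.20 and 7.62 in SBN/y and 9.58 and 10.07 in SBH/y. Hjv, the BMP co-receptor hemojuvelin, rose by 0.42 ± 0.12 and 0.92 ± 0.12 but had means below the lowest array median in all 4 groups. Just inside the limit of the rule were Hjv with a smaller rise of 0.42 and Slc5a12 with a smaller fall of -0.39, and just outside it Foxq1 with 0.40 and Folh1 with -0.38. Of the 24 genes named by this rule, 19 were called on average with the clock score and 21 with the 3′ minus 5′ signal as a covariate, and all 24 kept 1 sign in both strains in each fit. Beside Nat8f1, the call was lost with either covariate for Gadd45g (average adjusted p 0.0674 and 0.122) and Slc5a12 (0.166 and 0.176). With the clock score alone it was lost for Stc1 (0.0789) and Rbp4 (0.0808). In the uninephrectomized arrays whose clock score went against their groups, number 6 of SBN/y and number 2 of SBH/y, 18 and 17 of the 24 genes lay beyond the sham range of the strain in the direction of the change, against 15 to 20 and 20 to 22 in the other arrays of the group. These 24 genes were chosen on the same arrays.

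**Figure D5:**
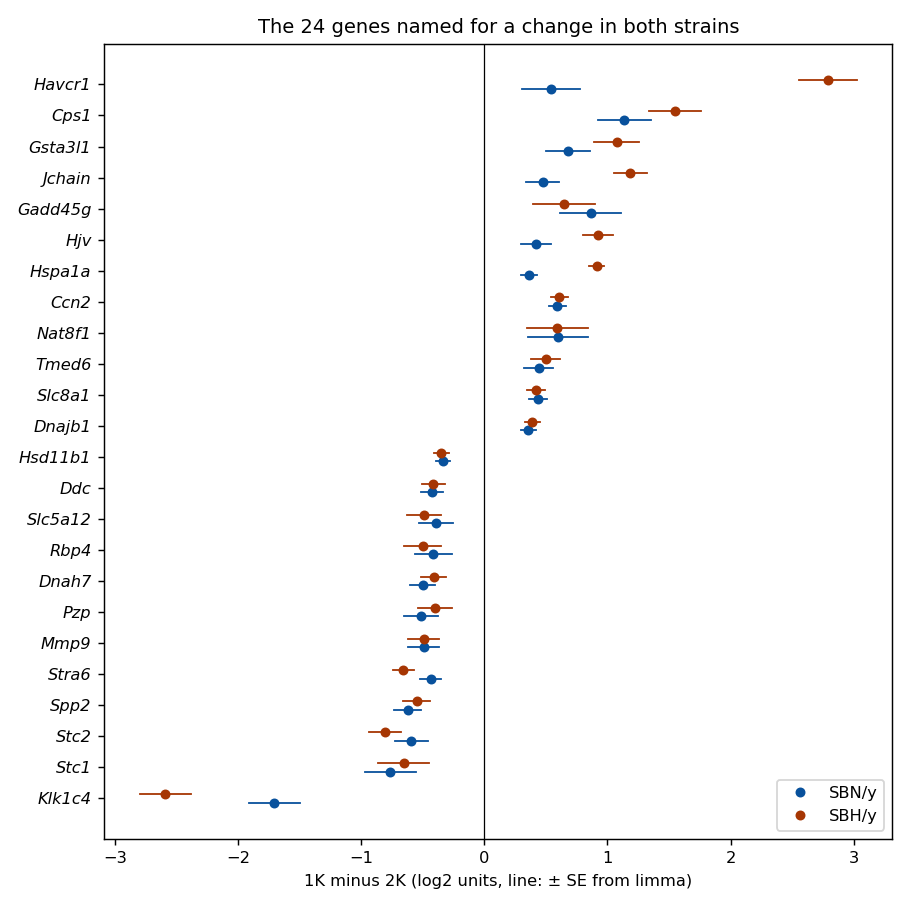
Change after uninephrectomy in SBN/y (blue) and SBH/y (brown) of the 24 genes named for the largest change in both strains, in log2 units with lines of 1 SE from limma. All points of a gene lie on 1 side of 0, as the rule requires; the strains lie within their errors for genes such as Ccn2, Slc8a1, Hsd11b1 and Ddc and far apart for Havcr1 at 0.54 and 2.79.

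Several tubular injury genes rose on average. Havcr1, the injury marker Kim-1, ran from 4.27 to 4.86 (median 4.58) in sham and from 4.38 to 5.71 (median 5.09) in uninephrectomized SBN/y. In SBH/y it ran from 4.36 to 5.07 (median 4.78) and from 6.64 to 8.81 (median 7.19). The groups overlapped in SBN/y and were far apart in SBH/y. The change was 0.54 ± 0.23 in SBN/y (1.46-fold, adjusted p 0.474) and 2.79 ± 0.23 in SBH/y (6.91-fold, adjusted p 4.37e-09), and the strains differed (adjusted p 0.000741). In 3 groups its mean lay below the lowest array median. Of 31 measured tubular injury genes 10 rose and 0 fell on average (3.51% and 4.38% of all genes), and 4 of the rises had p under 0.05 in each strain (1.33%). In SBN/y 0 were called, where 0.288% of all genes rose, and in SBH/y 12 rose and 1 fell (4.85% and 5.51%). With either covariate 7 rose. The interaction was called for 6 of the 31. Vim, a filament protein of dedifferentiated tubule cells, rose by 0.16 ± 0.06 and 0.49 ± 0.06, and Gpnmb, a glycoprotein of injured tubules and macrophages, by 0.28 ± 0.11 and 1.15 ± 0.11. Spp1, osteopontin, changed by 0.10 ± 0.10 and 0.86 ± 0.10 and Clu, clusterin, by -0.04 ± 0.07 and 0.51 ± 0.07, with adjusted p values of 0.00318 and 0.00315 for the difference between strains. A dimmer probe set of Clu did not pass. Lcn2 was dim in all 4 groups and did not pass the test (0.09 ± 0.06).

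Immune cell genes included few with a change in both strains. Jchain, which joins polymeric IgA and IgM in plasma cells, had sham arrays of 5.50 to 5.93 (median 5.80) in SBN/y and 6.40 to 7.22 (median 6.85) in SBH/y. After uninephrectomy they ran from 6.03 to 6.38 (median 6.19) and from 7.60 to 8.76 (median 7.89). There was no overlap in either strain. The rise was 0.47 ± 0.13 and 1.19 ± 0.13, the strains differed (adjusted p 0.048), and a second probe set rose by 0.21 and 0.87. Of 29 measured macrophage and monocyte markers, 7 rose and 1 fell on average (3.51% and 4.38% of all genes), 0 were called in SBN/y (0.288% of all genes rose) and 8 rose in SBH/y (4.85%). The mannose receptor Mrc1, dim in 3 groups, rose by 0.39 ± 0.13 and 0.61 ± 0.13, and the invariant chain Cd74 by 0.14 ± 0.04 on average. Cd74 changed by 0.02 ± 0.05 in SBN/y and 0.25 ± 0.05 in SBH/y. Cd14 fell on average, with -0.22 ± 0.06 and -0.19 ± 0.06. The mean log2 value of the list had medians of 6.61 and 6.64 in sham and uninephrectomized SBN/y arrays and of 6.91 and 7.16 in SBH/y. Without number 6 of sham and number 6 of uninephrectomized SBH/y 3 markers rose, and 4 without number 7 of sham or number 1 of uninephrectomized SBH/y. With the clock score 2 rose and with the 3′ minus 5′ signal 1.

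Several podocyte genes fell on average. Of 16 measured, 8 fell and 1 rose on average (4.38% and 3.51% of all genes). In SBN/y 0 were called, where 0.317% of all genes fell, and in SBH/y 8 fell (5.51%). The interaction was called for 5 (2.06%). Nphs1, nephrin of the slit diaphragm, had medians of 6.60 and 6.63 in sham and uninephrectomized SBN/y arrays and of 6.90 and 6.31 in SBH/y, with changes of -0.07 ± 0.10 and -0.62 ± 0.10 and an adjusted p of 0.0364 for the difference. Wt1, the podocyte transcription factor, changed by 0.03 ± 0.07 and -0.55 ± 0.07 (adjusted p 0.00201 for the difference), and the phosphatase Ptpro by -0.06 ± 0.06 and -0.42 ± 0.06. Tcf21 was the 1 member with p under 0.05 in each strain, with changes of -0.19 ± 0.05 and -0.21 ± 0.05. A dimmer probe set of Wt1 did not pass, while that of Nphs1 fell by -0.36 on average. The mean log2 value of the list ran from 8.08 to 8.14 in sham and from 7.75 to 8.01 in uninephrectomized SBH/y, with no overlap, and from 8.0 to 8.20 and 8.01 to 8.14 in SBN/y. With either covariate 3 podocyte genes fell. The list also held Mme, the peptidase neprilysin named above, which was among the 8 falls, the 5 interactions and the 3 falls with each covariate. Its group medians lay between 10.34 and 10.91, and the part of podocytes in its signal was not tested.

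Some of the largest average changes were called in the own test of 1 strain and not the other. The clock genes Npas2 and Bmal1, partners that drive the daily rhythm, changed by -2.70 ± 0.34 and -2.16 ± 0.33 in SBH/y and by -0.04 ± 0.34 and 0.11 ± 0.33 in SBN/y, and Per2 and Usp2, of opposite phase, by 1.29 ± 0.21 and 1.37 ± 0.24 in SBH/y and 0.24 ± 0.21 and 0.17 ± 0.24 in SBN/y. In uninephrectomized SBH/y Npas2 lay between 4.38 and 5.29 in 6 arrays and at 7.74 in number 2, where sham arrays ran from 7.72 to 8.11. Ddit4l (-2.66 ± 0.39 in SBH/y) and the lactate transporter Slc16a1 (-1.68 ± 0.27) had number 2 apart in the same way, at 9.37 and 9.73. Of 18 measured clock genes, 5 rose and 2 fell on average (3.51% and 4.38% of all genes), none with p under 0.05 in each strain, and the interaction was called for 9 (2.06%). With the 3′ minus 5′ signal as a covariate 1 rose, and 9 rose without number 2 of uninephrectomized SBH/y. The clock score is a mean of clock genes, so a fit with it removes their change by construction and is not read for them. For Per2 and Usp2 the difference between strains did not pass the test (adjusted p 0.0634 and 0.0655), and a second probe set of Per2 (0.04 on average, adjusted p 0.607) did not pass the average test. The neutrophil gene S100a9 changed by -1.11 ± 0.27 in SBH/y and -0.33 ± 0.27 in SBN/y and was dim in all 4 groups. The lipid synthesis genes Scd, dim in 3 groups, and Thrsp were called in SBN/y's own test and not in SBH/y's, with -1.97 ± 0.41 and -1.51 ± 0.33 beside -0.25 ± 0.41 and 0.00 ± 0.33 in SBH/y, with adjusted p values of 0.159 and 0.105 for the difference between strains. The average call of Thrsp was lost in 20 of 28 fits without 1 array (adjusted p up to 0.0831). Adipose markers ranged most in SBN/y, where the mean of 19 measured markers ran from 6.24 to 6.97 in sham and from 6.07 to 6.95 in uninephrectomized arrays, against 6.19 to 6.50 in SBH/y; 3 of the 19 fell on average and 0 rose. The part of fat around the kidney in the Scd and Thrsp changes was not tested.

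Markers of cell division gave few calls on average and in SBN/y and more in SBH/y. Of 43 measured cell cycle genes 3 rose and 0 fell on average (3.51% and 4.38% of all genes), 0 were called in SBN/y and 18 rose in SBH/y (4.85% of all genes), and the interaction was called for 2. Mki67 rose on average (0.22 ± 0.06, adjusted p 0.0264) but was dim, with means below the lowest array median in all 4 groups, and Pcna, the replication clamp, did not pass (-0.05 ± 0.03, adjusted p 0.416). Umod, the main protein of normal urine, had medians of 13.21 and 13.26 in sham and uninephrectomized SBN/y arrays and 13.27 in both SBH/y groups, and did not pass the test (0.02 ± 0.03, adjusted p 0.703).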

How the data were processed

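RNA of 28 kidney samples was hybridised to Affymetrix arrays, 7 per group. Per the labels' protocols, total RNA was extracted with an RNeasy kit and labelled with biotin. The authors deposited log2 expression values per probe set, and the submitters' processing notes name GCOS and RMA without versions. Array medians are alike, and no label tells if RMA was run on the 28 arrays at once.

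Of 31099 probe sets, 57 controls were left out. Of the 31042 tested, 20826 had 1 gene symbol, 436 several and 9780 none, from the platform annotation updated through RefSeq (20758 by gene ID, 2 by accession, 66 kept as given). A gene stands for its brightest probe set with 1 symbol. A linear model with a mean per group was fitted over all 28 arrays (R 4.3.3, limma 3.58.1, no covariates), with Benjamini-Hochberg adjustment over all probe sets and a threshold of 0.05. The average weighted both strains equally. The both-strains test took the larger of the strains' p-values where the signs were equal and 1 where they were not. No p-value was taken within a list. The scripts were tested on data with known answers. Of probe sets simulated with a change of 0.5 log2 units in SBH/y only, the average test called 79% and the both-strains test 0%.

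Named genes were the 12 rises and 12 falls with the largest smaller change of the strains (those called in both strains first, then those called on average with p under 0.05 in each), the 8 largest average rises and falls, up to 4 members of each of 13 lists and a panel of genes of interest. The members and lists were chosen with earlier results of these data known. Genes stated as named after their values were seen lie outside the rule. Promoters came from RefSeq (GRCr8). The number of arrays limits the precision. Alternatives were quantile normalization, median centring, leaving out dim probe sets, another variance trend, array weights, a replicate block and each array left out. The clock score and 3′ minus 5′ signal as covariates, and the pairs of arrays left out, were chosen after seeing the data. The labels do not say that samples with the same number in the sham and uninephrectomized group of a strain belong together. The main fit therefore did not use the numbers as pairs. Of 14 sham arrays, 8 correlated best with their own number, and whether such samples share a batch was not tested.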

Additional observations from a re-analysis of the deposited data

Results flagged for a closer look

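Of the 400 groups of 7 arrays formed by 100 named genes, 42 had 1 array set apart from the nearest of the others by more than the limit of Dixon's test. Chance sets apart about 1 in 20 groups. The genes share the same arrays, so the 42 are not independent, and their number was not tested against chance. Values below are deposited log2 values, each followed by that of the nearest other array of its group. Number 2 of uninephrectomized SBH/y stood apart for 11 genes, among them Bmal1 (7.52, nearest 5.20), Ddit4l (9.37, nearest 6.68), Eci2 (9.90, nearest 9.38), Herpud1 (9.52, nearest 9.93), Npas2 (7.74, nearest 5.29) and Per2 (8.60, nearest 9.42). It did so too for Slc16a1 (9.73, nearest 7.89), Slc8a1 (9.12, nearest 8.88), Stra6 (8.08, nearest 7.65), Usp2 (6.99, nearest 8.46) and Vim (9.09, nearest 9.45).

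Number 2 of sham SBN/y stood apart for 10 genes, among them Chordc1 (7.90, nearest 8.24), Col1a1 (7.20, nearest 7.46), Dnaja1 (10.19, nearest 10.45), Gstp1 (10.94, nearest 11.21) and Mme (10.64, nearest 10.84). It did so too for Nat8f1 (8.85, nearest 10.71), Nphs1 (6.92, nearest 6.61), S100a9 (5.35, nearest 3.94), Stc1 (9.23, nearest 8.50) and Usp2 (6.66, nearest 7.30). Number 6 of uninephrectomized SBN/y stood apart for 6 genes, among them Agt (4.12, nearest 4.75), Bmal1 (4.95, nearest 6.79) and Ddit4l (5.77, nearest 7.28). It did so too for Herpud1 (9.86, nearest 9.38), Npas2 (5.58, nearest 6.98) and Slc16a1 (6.79, nearest 7.91).

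In sham SBN/y the other was Kl in number 1 (6.84, nearest 7.42). In uninephrectomized SBN/y the others were Kl in number 5 (8.31, nearest 7.55), Lcn2 in number 7 (4.08, nearest 3.85), Pcna in number 5 (9.79, nearest 9.73), Slc22a6 in number 2 (10.43, nearest 10.60), Slc34a1 in number 7 (12.70, nearest 12.88) and Thrsp in number 2 (8.24, nearest 6.72). In sham SBH/y the others were Ddit4 in number 6 (6.95, nearest 7.24), Mmp9 in number 3 (6.45, nearest 5.94) and Slc22a6 in number 2 (10.62, nearest 10.44). In uninephrectomized SBH/y the others were Clu in number 6 (10.47, nearest 10.20), Lcn2 in number 6 (4.24, nearest 3.91), Ptpro in number 6 (7.38, nearest 7.61), Tgfb3 in number 4 (5.79, nearest 5.63) and Umod in number 7 (13.18, nearest 13.25).

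The change after uninephrectomy differed between the strains for 19 of the named genes, by the interaction term of limma. Taking the SBN/y change from the SBH/y change, the difference in log2 units was above 0 for Areg (1.24, adjusted p 0.00256), Clu (0.54, adjusted p 0.00315), Col1a1 (0.49, adjusted p 0.0397), Enpep (0.26, adjusted p 0.0134), Gpnmb (0.87, adjusted p 0.00295), Havcr1 (2.25, adjusted p 0.000741), Herpud1 (0.71, adjusted p 0.00634), Hspa1a (0.55, adjusted p 0.00177), Jchain (0.71, adjusted p 0.048) and Spp1 (0.77, adjusted p 0.00318). It was below 0 for Bmal1 (-2.27, adjusted p 0.0103), Ddit4l (-2.93, adjusted p 0.0053), Klk1 (-0.49, adjusted p 0.00157), Mme (-0.25, adjusted p 0.042), Npas2 (-2.67, adjusted p 0.00385), Nphs1 (-0.55, adjusted p 0.0364), Ptpro (-0.36, adjusted p 0.0289), Slc16a1 (-1.79, adjusted p 0.0131) and Wt1 (-0.59, adjusted p 0.00201). Of the 8 genes called in both strains, Hspa1a was the 1 with such a difference.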

How the results depend on the processing

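Among named genes called on average, the sign turned only in another probe set of Akr1b1 (0.012) and of Col1a1 (-0.064), neither called. The sign also turned for 3 genes not called on average, Kl, Lrp2 and Col3a1. Quantile normalization and median centring moved none of the counts of calls by over 1.5 times. The both-strains count of 12 became 20 without the dimmest 40% of probe sets and 21 with a trended and robust variance. With array weights the SBN/y count of 144 became 225 and the interaction count of 439 became 899. With the replicate number as a block within each strain these 2 counts were 244 and 727. Thrsp (average adjusted p 0.0511) and Stra6 (both-strains adjusted p 0.137) then lost their calls. No other average call of a named gene changed, nor the both-strains call of the rest of the 8 genes. For named genes, calls in a single strain, interaction calls and gained both-strains calls were not followed. The numbers are not known to pair samples: 9 of 14 pairs had correlated deviations over 0.1, from -0.0827 to 0.586, and 8 of 14 sham arrays correlated best with their own number. With the clock score as a covariate the average called 544, the both-strains test 4, SBH/y 80 and the interaction 0 (1587 at an unadjusted p under 0.05 in limma). With the 3′ minus 5′ signal the average called 661, the both-strains test 5, SBN/y 35 and SBH/y 1616. Of the 8 genes called in both strains, Ccn2, Klk1c4 and Hspa1a kept the call with the clock score, and Ccn2, Klk1c4 and Slc8a1 with the 3′ minus 5′ signal. Both covariates differ between the groups compared, and the cause was not tested. Without number 6 of uninephrectomized SBN/y and number 2 of uninephrectomized SBH/y the interaction called 977. Leaving out each array in turn gave 1624 to 2450 average calls, 8 to 19 in both strains, 62 to 167 in SBN/y, 1925 to 3145 in SBH/y and 306 to 870 for the interaction. The 19 and the 870 were without number 2 of uninephrectomized SBH/y, and the 62 without number 7 of uninephrectomized SBN/y. Stra6 also lost its both-strains call with median centring (adjusted p 0.071) and Cps1 with the trended variance (0.069). Not all of the 100 named genes were called on average. Of the average calls among them, 33 were lost with the clock score, 27 with the 3′ minus 5′ signal and 6 in an additive model. The 33 include Bmal1, Per2 and Usp2, clock genes for which the fit with the clock score is not read.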

Other observations

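Endothelial markers were among the other lists with falls: 6 of 20 measured members fell on average and 0 rose (4.38% and 3.51% of all genes), none with p under 0.05 in each strain. They were the VEGF receptor Kdr, the transcription factors Sox17 and Sox18, the sialomucin Emcn, the tight junction gene Cldn5 and the plasminogen activator Plat. The pan-endothelial gene Pecam1 changed by 0.022 in SBN/y and -0.097 in SBH/y and did not pass the test. Some antigen presentation genes rose on average, 5 of 24 measured and 0 fell (3.51% and 4.38% of all genes), all of the class II pathway: RT1-DMa, RT1-DMb, RT1-Db1, Cd74 and Ctss. Of these 2 had p under 0.05 in each strain. Tested alone, SBN/y called 0 of the list, where 0.288% of all genes rose, and SBH/y 6 rises (4.85%). The median change over the list was -0.02 in SBN/y and 0.19 in SBH/y.

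Of 12 measured thick ascending limb markers, 2 rose and 0 fell on average (3.51% and 4.38% of all genes): the paracellular channel gene Cldn16 and the kinase gene Wnk1, both with p under 0.05 in each strain. The mean log2 value of the list ran from 10.04 to 10.19 in sham and from 10.17 to 10.36 in uninephrectomized SBN/y arrays, and from 9.82 to 9.92 and 9.77 to 9.91 in SBH/y, so the groups overlapped in both strains. The median change over the list was 0.11 in SBN/y and -0.02 in SBH/y. In the list of amino acid transport and metabolism, 4 of 41 rose and 4 fell (3.51% and 4.38% of all genes), with 2 rises and 3 falls having p under 0.05 in each strain (1.33% and 1.7%). These genes were named after their values were seen.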
